A study of Homo sapiens with 2 samples.

Results

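The genes described here are 10 genes of TGF-beta and activin signaling: the activin antagonists FSTL3 and FST and their relative FSTL1, the ligand genes INHBA, TGFB1 and TGFB2, the receptors TGFBR1 and TGFBR2, and the signal transducers SMAD2 and SMAD3. They were picked by symbol from the 12014 protein-coding genes in the files, and 9 of the 10 are listed there; FST is not listed. FSTL3 was chosen by its low value in the shKIAA1429 library, which was known from an earlier look at these libraries, and the others were grouped around it by function, so the values of FSTL3 are a description and support nothing by themselves. All 9 listed genes passed the filter on low values, an FPKM of 1 or more on average over the 2 libraries, as did 10702 genes in all; genes that passed are called tested below.

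ACHN cells, a human renal cell carcinoma line, were infected with lentivirus that carried a control shRNA (shNC) or one targeting KIAA1429 (shKIAA1429), stable lines were selected with puromycin, and poly(A) RNA was sequenced. KIAA1429, also called VIRMA, is a core part of the complex that writes N6-methyladenosine into mRNA, and the study asked which transcripts depend on it. The sample labels call the first group a KIAA1429 knockout, whereas the methods describe a knockdown with shRNAs and do not say which of them was sequenced. Each group was 1 library, so no difference below has a replicate check, no p-value was computed, and the order of levels within a library could not be tested either. Values are FPKM, fragments per kilobase of gene per 1000000 fragments, which take gene length into account and allow levels to be compared between genes. The read depth is unknown. In bulk RNA, fewer cells of a type and less RNA per cell cannot be told apart.

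VIRMA itself was at 3.92 FPKM with shNC and at 3.22 FPKM with shKIAA1429, 82.1% of the control level. The housekeeping genes ACTB and GAPDH were at 84.1% and 80.7% of their control levels, and VIRMA lay between these. The log2 of (FPKM + 1) of VIRMA differed by -0.22, below the lower quartile of the tested genes, -0.15. ACTB and GAPDH also lay below that quartile, at -0.25 and -0.31. These values by themselves do not show a knockdown at the mRNA level, which could not be tested with 1 library per group. The paper reports that its shRNAs lowered KIAA1429 mRNA by RT-qPCR and protein by western blot in ACHN cells. In the text below, shKIAA1429 names the library by its label. Mitochondrial genes held 42.2% of the listed FPKM with shNC and 34.6% with shKIAA1429. Of 12 renal epithelial and carcinoma markers, 11 are listed (all but CDH6), and they summed to 1074 FPKM with shNC and 911 FPKM with shKIAA1429. PAX8, a transcription factor of the kidney lineage, was at 64.7 FPKM with shNC and 104 FPKM with shKIAA1429, and the nephron factor LHX1 was at 11.0 FPKM and 4.44 FPKM. VIM, which encodes vimentin, was at 368 FPKM and 228 FPKM, and the kidney cadherin gene CDH16 at 6.61 FPKM and 4.29 FPKM. None of 4 endothelial markers is listed. Of 5 immune markers, LYZ and CD68 are listed and the pan-leukocyte gene PTPRC is not; both together came to 7.80 FPKM with shNC and to 2.21 FPKM with shKIAA1429, with LYZ at 3.93 FPKM and 0.154 FPKM and CD68 at 3.87 FPKM and 2.06 FPKM. Of 5 fibroblast markers, COL1A1 and PDGFRB are listed, with a sum of 1.75 FPKM and 2.60 FPKM. The part of these differences in the results below was not tested.

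Ligands of the TGF-beta family act as dimers. TGF-betas are secreted in a latent form and, once released, join a type II and a type I receptor kinase. The type I receptor phosphorylates SMAD2 and SMAD3, and these enter the nucleus with SMAD4. Activin A, a dimer of the INHBA product, uses activin receptors and the same pair of SMADs, whereas bone morphogenetic proteins (BMPs) use SMAD1, SMAD5 and SMAD9. Follistatin, encoded by FST, and its relative FSTL3 wrap around activin and keep it from its receptors, and transcription of FSTL3 is itself known to be induced by TGF-beta and activin. In kidney tubule cells this pathway is known for driving matrix production and epithelial-mesenchymal transition.

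Because KIAA1429 serves m6A writing, the most common form of the m6A consensus, written GGACT in DNA letters, was searched in the sense strand of the longest protein-coding transcript of each gene in GENCODE 29. A match is a description and not a methylated site, since methylation was not measured in these libraries, and 92.1% of the 10644 genes with such a transcript hold the word. FSTL3 and INHBA are shown because they stand at opposite ends of the changes described below. All of their matches lie in the 3′ UTR, and the capitals mark the searched word.
FSTL3, transcript bases 1001 to 1021: tcctggaaGGACTgaggaagg
INHBA, transcript bases 1903 to 1923: agtagtgtGGACTagaacaac
INHBA, transcript bases 5116 to 5136: gtgggattGGACTttaagagg

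The FSTL3 transcript thus held 1 match in 2542 bases, or 0.393 per kilobase, and 15.0% of genes held fewer per kilobase. INHBA held 2 matches in 6064 bases, or 0.330 per kilobase, with 12.2% of genes below it. TGFB2, with 0.198 per kilobase, was the lowest of the listed genes, and TGFB1 and FSTL1, with 1.44 and 1.35 per kilobase, were the highest. The median over all genes was 0.927 per kilobase. FSTL3, which among the 9 genes differed most between the libraries, and INHBA, which differed the other way, therefore both held few matches.

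The promoters of the 10 genes, taken from RefSeq on GRCh38.p14, were searched for CAGAC or its reverse GTCTG, the core word bound by SMAD3 and SMAD4, in the 250 bases before each annotated start. Of all 35116 promoters of this length, 13345 hold the word on either strand. It was found for TGFB2, TGFBR1 and SMAD3 and not in these windows of FSTL3, FST, FSTL1, INHBA, TGFB1, TGFBR2 or SMAD2. TGFBR1 has 8 annotated promoters, of which 4 hold the word, and SMAD3 has 5, of which 2 hold it. TGFBR2 and SMAD2 have 2 each. A gene with more promoters has more windows, so this count by gene cannot be set beside the count over all promoters. TGFB2 is shown as the gene with a single annotated promoter that carries the word, in capitals.
TGFB2, chr1:218345086-218345114, plus strand: ccttcaaCAGACctgtccaaaatgactgg
TGFB2, chr1:218345271-218345299, plus strand: ctttgttgaaggCAGACacgtggttcaga

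FSTL3 (ENSG00000070404.9_3), on the plus strand of chromosome 19 (GRCh37, 676365 to 683399), was at 23.6 FPKM with shNC and 5.35 FPKM with shKIAA1429. The shKIAA1429 library thus held 22.7% of the control level, and the log2 of (FPKM + 1) differed by -1.95. This scale is used for all changes below, and on it the change of a weakly expressed gene comes out too small. FSTL3 had rank 11 from the lowest among 10702 genes. Of the 535 genes in its bin of mean FPKM, it was 1 of 2 with a change this low. No other listed gene overlaps it on either strand, and no gene of any type does in GENCODE 29. Of the 5 genes nearest to FSTL3 in level, by Euclidean distance in log2(FPKM + 1) over the 2 libraries, 4 were the read-through gene RNASEK-C17orf49, CCDC85B, MYC and TMEM250. MYC, a transcription factor that drives growth, was at 28.5 FPKM with shNC and 4.53 FPKM with shKIAA1429.

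FSTL1 (ENSG00000163430.11_3), on the minus strand of chromosome 3 (GRCh37, 120111140 to 120170100), encodes a secreted glycoprotein with a follistatin domain that is not a classical activin antagonist. It was at 6.97 FPKM with shNC and 11.2 FPKM with shKIAA1429, a log2 change of 0.62. It therefore differed in the direction opposite to FSTL3, though with the trend with GC content and transcript length removed its change was 0.47. Of the 535 genes of like mean level, 36 including itself had a change this high.

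INHBA (ENSG00000122641.10_3), on the minus strand of chromosome 7 (GRCh37, 41706766 to 41745432), was at 15.7 FPKM with shNC and 27.3 FPKM with shKIAA1429, a 1.74-fold higher level and a log2 change of 0.76. Of 535 genes in its bin, 23 including itself were this high. An antisense gene, INHBA-AS1, lies on the other strand in GENCODE 29 and is not listed in the files. The libraries were strand-specific, but how strand was used in the counting is not given in the sources used here. The ratio of FSTL3 to INHBA was 1.5 with shNC and 0.196 with shKIAA1429. The antagonist was thus the more abundant transcript of the pair in the control library and the less abundant one in the shKIAA1429 library. Because FSTL3 was chosen by its low value in the shKIAA1429 library, this reversal is a description. With FSTL1 added to FSTL3 the ratio to INHBA was 1.95 and 0.608. FST, the other antagonist, could not be included because it is not listed.

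TGFB1 (ENSG00000105329.9_2), on the minus strand of chromosome 19 (GRCh37, 41807492 to 41859816), was at 30.5 FPKM with shNC and 27.2 FPKM with shKIAA1429. Its log2 change of -0.16 became 0.02 when the FPKM of each library were rescaled to total 1000000, so its direction depends on the scaling. HNRNPUL1 and CCDC97 overlap it on the opposite strand, with log2 changes of -0.03 and -0.07. TGFB2 (ENSG00000092969.11_2), on the plus strand of chromosome 1 (GRCh37, 218519577 to 218617961), was at 17.2 FPKM and 12.1 FPKM, a log2 change of -0.47 that became -0.74 with the GC and length trend removed. In its bin of 535 genes, 33 including TGFB2 had a change this low.

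The 2 receptor genes were at unequal levels. TGFBR2 (ENSG00000163513.17_2, chromosome 3 of GRCh37, 30647994 to 30735634), the type II receptor that binds TGF-beta first, was at 16.9 FPKM with shNC and 20.1 FPKM with shKIAA1429, a log2 change of 0.24. TGFBR1 (ENSG00000106799.12_2, chromosome 9 of GRCh37, 101866320 to 101916474), the type I receptor that phosphorylates the SMADs, was at 1.82 FPKM and 2.77 FPKM, a log2 change of 0.42. Both were higher with shKIAA1429 by less than 0.5, and TGFBR1 ranged from 0.23 with the GC and length trend removed to 0.70 after the rescaling. The level of TGFBR2 was 9.27 times that of TGFBR1 in the control and 7.25 times with shKIAA1429.

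The SMADs of this branch were even further apart in level. SMAD3 (ENSG00000166949.15_3, chromosome 15 of GRCh37, 67356101 to 67487533) was the most abundant of the 9 genes in both libraries, at 48.2 FPKM with shNC and 38.4 FPKM with shKIAA1429, a log2 change of -0.32. SMAD2 (ENSG00000175387.15_4, chromosome 18 of GRCh37, 45335328 to 45457517) was the least abundant in both, at 1.07 FPKM and 1.40 FPKM, a log2 change of 0.21 that became -0.01 once the trend with GC content and transcript length was removed. SMAD3 was 44.9 times as abundant as SMAD2 with shNC and 27.4 times with shKIAA1429. The longest SMAD2 transcript in GENCODE 29 has 34526 bases, and FPKM depends on the lengths the authors' software used.

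**Figure D1:**
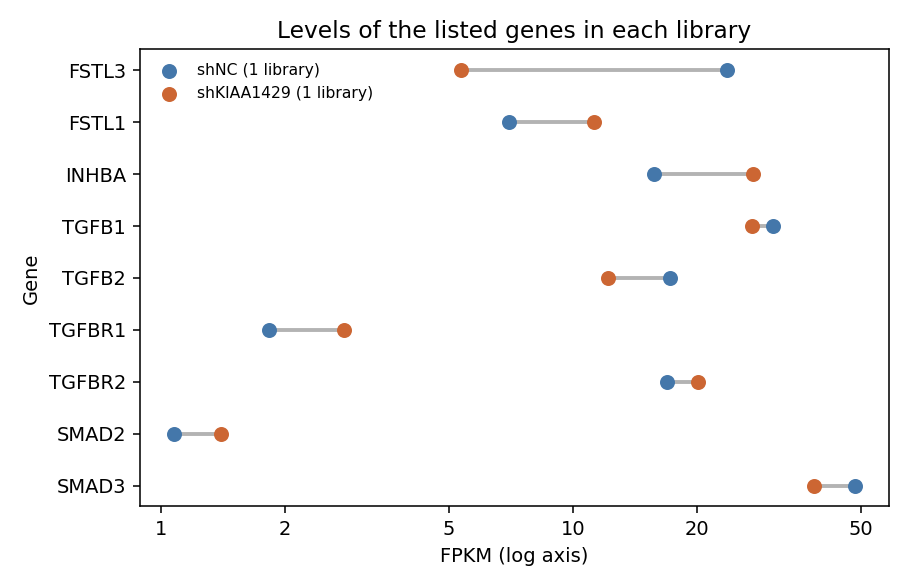
Level of each of the 9 listed genes in FPKM on a log axis, with 1 point for each library (shNC and shKIAA1429, 1 library each, so there are no error bars). FSTL3 spans the widest range, from 23.6 FPKM with shNC to 5.35 FPKM with shKIAA1429, while TGFB1 lies at 30.5 and 27.2 FPKM.

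By level, SMAD3, TGFB1 and FSTL3 led in the control library, and SMAD3, INHBA and TGFB1 in the shKIAA1429 library. FSTL3 held place 3 of the 9 genes with shNC and place 7 with shKIAA1429, whereas INHBA moved from place 6 to place 2.

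Of the 9 genes, 1 (FSTL3) was more than 1.5 lower (log2), and 0 were higher by that much. The study used a log2 limit of 1.5 in DESeq2 together with a limit on P. Here 1.5 was set on the log2 of (FPKM + 1) alone, so the 2 rules are not the same. Over all 10702 genes, 0.252% were lower and 0.383% higher by more than 1.5. With a limit of 0.5, 3 of the 9 genes differed, FSTL3 to the lower and INHBA and FSTL1 to the higher side, against 16.0% of all genes in either direction. FSTL3 was chosen by its low value, so its place in both counts was set in advance and these comparisons are descriptions. The median log2 change of the 9 genes was 0.21, beside 0.06 over all genes, and 6 of the 9 genes lay within 0.5.

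**Figure D2:**
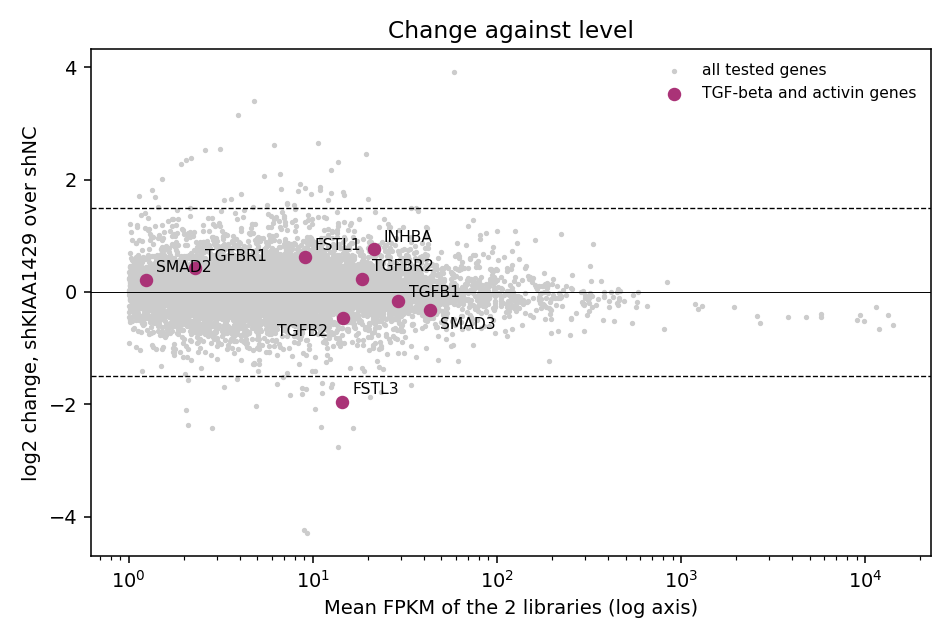
log2 change of (FPKM + 1), shKIAA1429 over shNC, against the mean FPKM of the 2 libraries on a log axis, for 10702 genes (grey) and the 9 listed genes (purple), with dashed lines 1.5 above and below 0. FSTL3, at -1.95, is the only 1 of the 9 outside the dashed lines, and the others lie between -0.47 and 0.76.

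The wider pathway was followed with 9 lists of known members and target genes, 151 symbols in all, of which 93 are listed and 82 were tested. The lists were written with earlier results of these data known, so their counts are descriptions. Of these 82 genes, 17 (20.7%) were higher and 4 were lower by more than 0.5, against 9.90% and 6.12% of all genes. The list of TGF-beta induced genes held 11 of the 17, so the share of 20.7% does not stand for ligands, receptors or SMADs. The median log2 change of the 82 genes was 0.20.

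Among the ligands of the TGF-beta and activin branch, 5 of 13 are listed and 4 were tested. INHBA was the 1 of these 4 (25%) past 0.5, against 16.0% of all genes in either direction. The list median was -0.16, beside 0.06 over all genes, and 4 genes are too few to be compared with these values. Of 16 BMP branch ligands only 3 are listed, and the 1 tested, AMH, was at 2.09 FPKM and 2.45 FPKM.

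Of the genes that bind latent TGF-beta or release it, 10 of 14 were tested, with a median log2 change of 0.33; 2 (20%) were higher by more than 0.5, against 9.90% of all genes, and 0 were lower by that much. ITGB8, the beta subunit of an integrin that frees TGF-beta from its latent complex, was at 1.95 FPKM with shNC and 7.47 FPKM with shKIAA1429, a log2 change of 1.52. Its partner ITGAV was at 18.1 FPKM and 28.6 FPKM, a log2 change of 0.63. THBS1, a matrix protein that activates latent TGF-beta and the most abundant gene of the list, was at 230 FPKM and 248 FPKM.

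Among the antagonists, 7 of 23 were tested, and FSTL3 was the only gene of the 7 that was lower with shKIAA1429. FSTL3 was chosen by its low value, so this contrast was set in advance and is a description. Of the 7 genes, 6 (85.7%) were above 0, as were 57.3% of all genes. Those higher by more than 0.5 were 2 (28.6%), against 9.90% of all genes. The 6 genes above 0 had log2 changes between 0.11 and 0.62. NBL1, a BMP antagonist of the DAN family, was at 21.9 FPKM with shNC and 31.5 FPKM with shKIAA1429, and CRIM1, the most abundant, at 69.8 FPKM and 79.3 FPKM.

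Of the receptors and co-receptors, 7 of 16 were tested and 0 passed 0.5 in either direction, against 16.0% of all genes. This count depends on the processing, since TGFBR1 was at 0.58 with a pseudocount of 0.1 and at 0.70 after the rescaling. The median of the 7 genes as deposited was 0.38, and 6 of the 7 (85.7%) were above 0, as were 57.3% of all genes. The most abundant was the type I receptor gene ACVR1, at 18.4 FPKM with shNC and 25.2 FPKM with shKIAA1429. Of 8 SMADs, 7 were tested, with a median of 0.11. The inhibitory SMAD6 was the 1 of these 7 (14.3%) past 0.5, against 16.0% of all genes, at 3.22 FPKM and 1.91 FPKM. The other inhibitory SMAD, SMAD7, which was named after its values were seen, was at 12.8 FPKM and 13.2 FPKM.

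Among 23 tested regulators and partners of the SMADs, 3 (13%) were higher by more than 0.5, close to the 9.90% of all genes, and 0 were lower by that much, with a median of 0.15. PMEPA1, an inhibitor of TGF-beta signaling that is itself a target of it, was at 5.04 FPKM with shNC and 13.7 FPKM with shKIAA1429, a log2 change of 1.28. SKIL, the co-repressor SnoN and likewise a known target, was at 2.64 FPKM and 6.42 FPKM, a log2 change of 1.03, and the ubiquitin ligase gene SMURF2 at 11.4 FPKM and 20.2 FPKM, a log2 change of 0.77. The most abundant, STRAP, was at 106 FPKM and 86.3 FPKM.

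**Figure D3:**
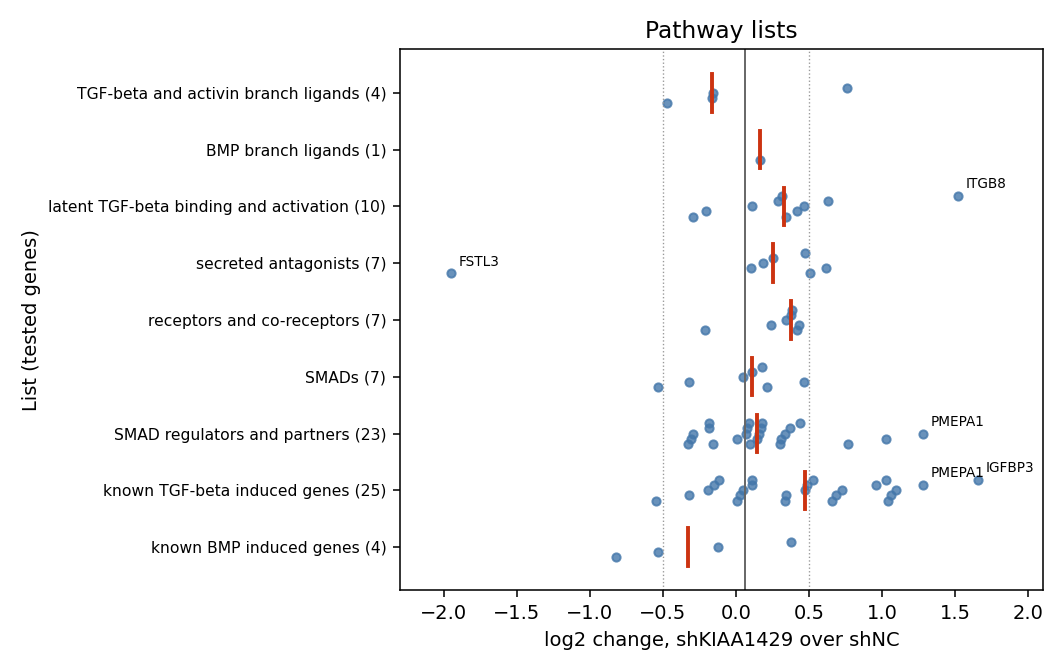
log2 change, shKIAA1429 over shNC, of the tested genes in each of 9 pathway lists (number of tested genes in brackets), 1 point per gene with a small vertical offset for legibility. Red bars are list medians, the solid line is the median of all genes (0.06) and dotted lines mark 0.5 and -0.5; the TGF-beta induced list has its median at 0.47 and FSTL3 stands alone at -1.95.

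A list of 34 genes known to be induced by TGF-beta held the highest median of the 9 lists. It was written with earlier results of these data known, so its counts are a description and support nothing by themselves. Of these 34 genes, 27 are listed and 25 were tested, all 25 with at least 1 FPKM in the control. 11 of the 25 (44.0%) were higher by more than 0.5, against 9.90% of all genes, and 1 was lower, against 6.12%. The median log2 change was 0.47. Among the 18 genes that averaged 5 FPKM or more, 7 (38.9%) were higher by more than 0.5, against 10.2% of all genes at that level, and without the genes that another list also holds, 9 of 19 were. FSTL3, though known to be TGF-beta induced, was not on this list.

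IGFBP3, a secreted binder of insulin-like growth factors, had the highest log2 change of the list, 1.66, with 9.13 FPKM in shNC and 30.9 FPKM in shKIAA1429. LOX, which crosslinks collagen, was at 18.4 FPKM and 40.5 FPKM, a log2 change of 1.10. The fibronectin gene FN1 was at 146 FPKM and 301 FPKM, a log2 change of 1.04. SNAI2, a transcription factor of epithelial-mesenchymal transition, was at 1.03 FPKM and 3.25 FPKM, a log2 change of 1.06 on a low level. Some early targets did not differ in this way: SMAD7 had a log2 change of 0.04, JUNB one of -0.19 and BHLHE40 one below 0.01, all of which were named after their values were seen. The 1 gene lower by more than 0.5, also named after its values were seen, was PDGFB, which encodes a platelet-derived growth factor chain, at 19.9 FPKM and 13.3 FPKM.

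**Figure D4:**
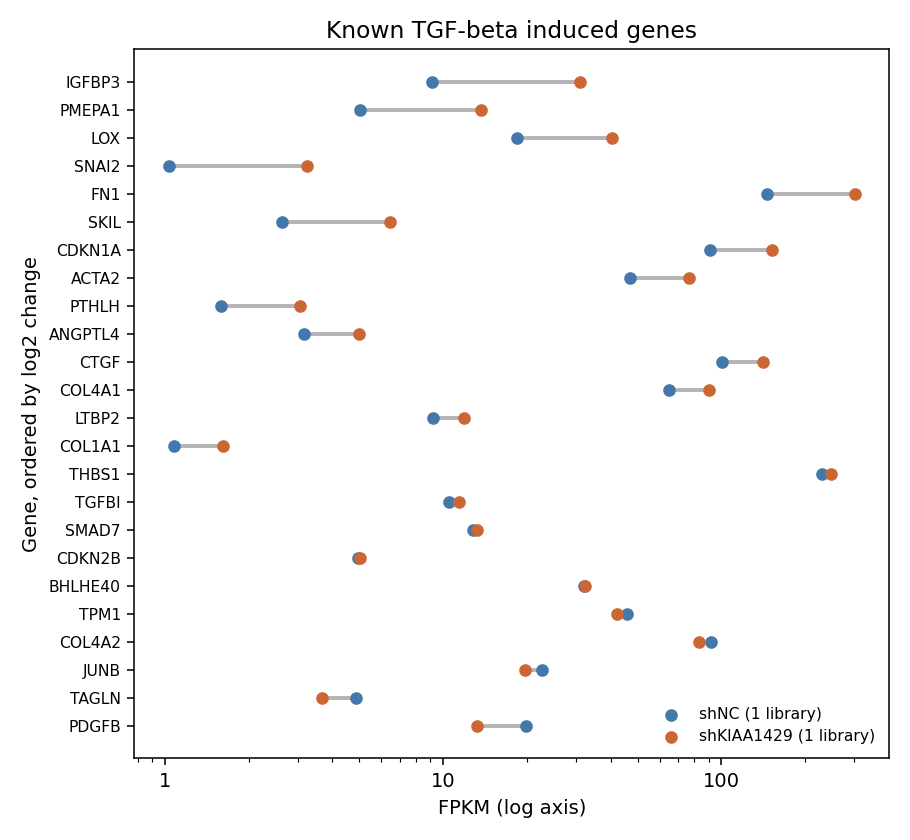
Level in FPKM on a log axis of 24 of the 25 tested genes known to be induced by TGF-beta, ordered by log2 change, with 1 point for each library (1 library per group, no error bars). 19 of the 24 genes lie higher with shKIAA1429, as did 57.3% of all genes, and the list was written with earlier results known. The order runs from IGFBP3 at the top (9.13 and 30.9 FPKM) to PDGFB at the bottom (19.9 and 13.3 FPKM).

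Of 9 genes known to be induced by BMPs, 4 were tested, with a median of -0.33. Of these, 2 were lower and 0 higher by more than 0.5, against 6.12% and 9.90% of all genes. ID2, an inhibitor of helix-loop-helix transcription factors, was at 18 FPKM with shNC and 9.75 FPKM with shKIAA1429, a log2 change of -0.82. The other was SMAD6, at -0.53, which is also on the list of SMADs. With 4 genes, this list is too short to be compared with the longer ones.

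The rescaling to a sum of 1000000 moved the median of all genes up by 0.18. It left FSTL3 at -1.91 and INHBA at 0.97. It also changed the balance of calls past 0.5: 83.9% of all calls and 92.5% of the pathway calls were then on the higher side, against 61.8% and 81.0% as deposited. Centring on the median of all genes gave 49.8% and 75%. Under this rescaling 15 of the 25 TGF-beta induced genes (60.0%) were higher by more than 0.5, beside 23.9% of all genes.

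**Figure D5:**
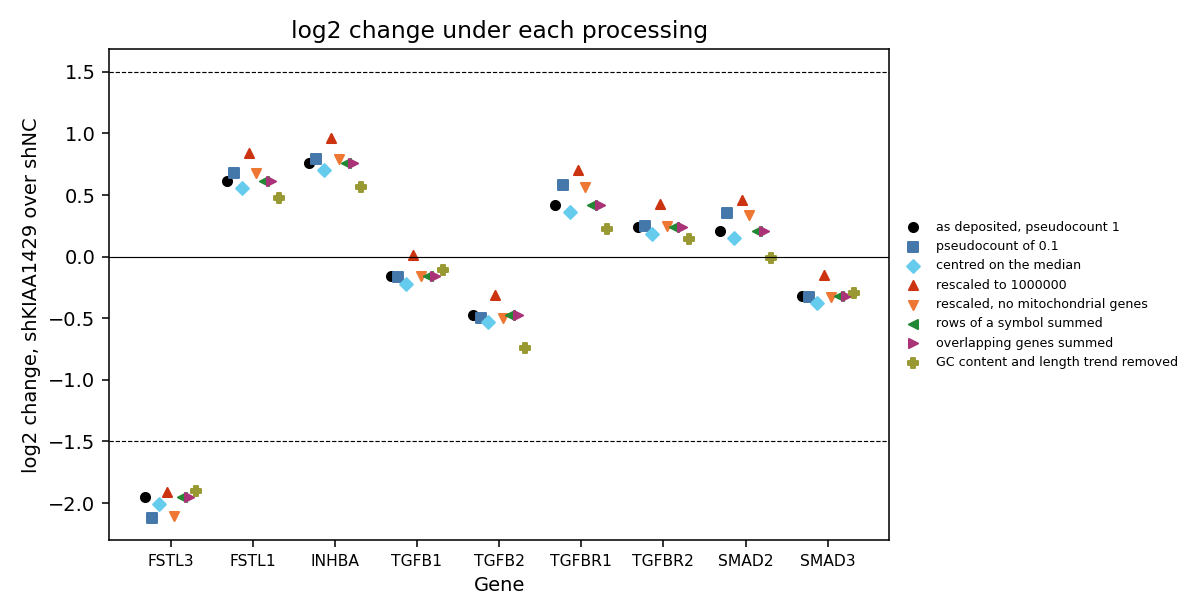
log2 change of each of the 9 listed genes, shKIAA1429 over shNC, under 8 ways of processing (symbols, see legend), with dashed lines 1.5 above and below 0. FSTL3 stays between -2.12 and -1.90, and the symbols of TGFB1 and SMAD2 fall on both sides of 0.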

How the data were processed

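RNA-seq values of 1 shKIAA1429 and 1 shNC library of ACHN cells were used, grouped by the sample labels. The authors deposited FPKM per gene, and the submitters' processing notes name cutadapt 1.9, HISAT2 2.0.4 and StringTie 1.3.4d as well as DESeq2 and edgeR. The genome build is not given in the sources used here, and the loci in the files are those of GRCh37. Only protein-coding genes above 0.5 FPKM in at least 1 library are listed, so a gene not listed may be low or of another type. Read counts and depth are unknown, and precision could not be estimated.

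From the deposited FPKM the log2 ratio of (FPKM + 1) was computed for genes averaging 1 FPKM or more. 7 symbols had several rows, of which the most abundant was kept. With 1 library per group no test was run. Bins were 20 equal groups of genes by mean FPKM. Transcript sequences were those of GENCODE 29, matched for 99.5% of the tested genes by Ensembl identifier. The genes and lists were chosen with earlier results of these data known. Named were all 10 genes, in each list the genes past 1.5, up to 4 further genes with the largest change past 0.5 and the most abundant gene, and the 5 genes nearest to FSTL3; 2 genes of these sets are not reported here. For FST plus FSTL3 over INHBA, FSTL3 alone was used because FST is not listed. The log2 change and the counts past 1.5 were checked on simulated data with large planted changes. The other steps were not checked in this way. Python 3.11.15, NumPy 2.4.6, pandas 2.3.3 and matplotlib 3.10.9 were used.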

Additional observations from a re-analysis of the deposited data

How the results depend on the processing

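With 1 library per group, no spread between replicates, interval or p-value was available, and no replicate could be left out. No paired analysis was possible because each group holds 1 library. Without replicates, a change of 0.25 on the log2 scale, or of 1.5 times for a count, was taken as a move. Subtracting the trend with GC content and transcript length (medians of 10 by 10 bins) was chosen after seeing the data. FSTL3 stayed lower by more than 1.5 under each alternative, from -2.12 with a pseudocount of 0.1 to -1.90 with the trend removed, and INHBA stayed between 0.57 and 0.97. The count of the 9 genes past 0.5 was 3 or 4, but not always of the same genes: with the trend removed FSTL1 was at 0.47 and TGFB2 at -0.74. After rescaling to a sum of 1000000, TGFBR1 was at 0.70 and SMAD2 at 0.46. The median of 0.21 over the 9 became 0.43 after this rescaling and -0.01 with the trend removed.

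Pathway genes higher by more than 1.5 were 2 as deposited, where 0.383% of all genes were. They were 4 after that rescaling, 7 with a limit of 1, and 1 after centring on the median, with a mean FPKM of at least 5 or with the trend removed. Those higher by more than 0.5 were 17 as deposited, 37 after rescaling and 23 after rescaling without mitochondrial genes, which moved the median of all genes by 0.01 instead of 0.18. The share of all genes higher by more than 0.5 also rose, from 9.90% as deposited to 23.9% after rescaling and 13.7% after rescaling without mitochondrial genes. TGF-beta induced genes higher by more than 0.5 were 11, and 7 with a mean FPKM of at least 5, where fewer genes were counted. Those lower were 1 as deposited, 2 without a filter, and 0 after rescaling or with the trend removed. With FSTL1 added, the ratio of FSTL3 and FSTL1 to INHBA was 1.95 with shNC and 0.608 with shKIAA1429. The cause of these moves was not tested, apart from the smaller gene sets and the added gene.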
